A study of Arabidopsis thaliana with 12 samples.

Results

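The clade A type 2C protein phosphatases (PP2Cs) of Arabidopsis thaliana were followed across wild type and RAF mutant seedlings with and without abscisic acid (ABA). The clade was taken as its 9 known loci, listed by identity. Earlier results of these data were known when it was chosen. The loci were ABI1 (AT4G26080), ABI2 (AT5G57050), HAB1 (AT1G72770), HAB2 (AT1G17550), AHG1 (AT5G51760), PP2CA (AT3G11410, also called AHG3), HAI1 (AT5G59220), HAI2 (AT1G07430) and HAI3 (AT2G29380). These were 9 of the 33602 genes in the deposited count table, and all 9 were among the 20617 genes that passed the low-count filter. AHG1, HAI2 and HAI3 passed it only through groups in which they were high.

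RNA-seq was performed on whole seedlings labelled as 12 days old, in 4 groups of 3 libraries: Col-0 wild type without treatment, Col-0 wild type with ABA, and the mutant labelled m9 without treatment and with ABA. The mutant is in the Col-0 background, and the study's methods name the sequenced mutant OK100-oct, a CRISPR-Cas9 line mutated in the B3 subgroup genes RAF4, RAF5 and RAF3 and the B2 subgroup genes RAF11, RAF10, RAF9, RAF8 and RAF7, which encode Raf-like kinases that act upstream of the SnRK2 kinases. The label itself does not separate it from the related OK100-nonu, which also lacks RAF6, and the dose and length of the ABA treatment are not given for these libraries in the sources used here. Of the 8 mutated RAF genes, 5 had lower transcript levels in the untreated mutant at an adjusted p under 0.05, where 2.29% of all genes tested did. By that rule 0 had higher ones, where 2.58% of all genes tested did (log2 differences of the 8 from -1.14 to 0.34). The mutations are small insertions and deletions, so transcript level does not check the genotype.

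Clade A PP2Cs are the negative regulators at the head of the ABA pathway. Without ABA they bind and dephosphorylate SnRK2 kinases and keep them inactive, and when PYR/PYL receptors bind ABA the receptor docks onto the phosphatase and blocks its active site. The SnRK2 kinases then phosphorylate bZIP transcription factors (ABFs) that bind ABA-responsive promoter elements, and genes of the PP2Cs themselves are well-known targets of this transcription.

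The clade falls into close relatives by sequence. Over the aligned coding sequences of the RefSeq annotation (TAIR10.1), ABI1 and ABI2 shared 77.2% of bases and HAB1 and HAB2 shared 77.3%. HAI2 and HAI3 shared 70.0%, HAI1 shared 62.7% with HAI2 and 61.7% with HAI3, and PP2CA shared 57.5% to 59.6% with the 3 HAI genes. AHG1 was the most distant member, with 45.5% to 50.8% of bases shared with any other. The stretches of 33 coding bases below are shown because they carry the codon, in capitals, aligned with the one for tryptophan 300 of ABI1, the residue that inserts between the gate loops of an ABA-bound receptor.
ABI1: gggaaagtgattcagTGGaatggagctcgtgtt
ABI2: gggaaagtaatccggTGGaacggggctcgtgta
HAB1: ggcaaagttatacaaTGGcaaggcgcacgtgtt
HAB2: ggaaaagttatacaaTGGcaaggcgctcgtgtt
AHG1: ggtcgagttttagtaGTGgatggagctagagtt
PP2CA: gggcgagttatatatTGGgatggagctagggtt
HAI1: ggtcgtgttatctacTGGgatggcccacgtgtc
HAI2: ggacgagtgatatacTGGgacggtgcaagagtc
HAI3: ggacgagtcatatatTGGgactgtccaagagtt
The codon TGG, for tryptophan, was found in 8 of the 9 sequences, and AHG1 has GTG, a valine codon, in its place. AHG1 is known to be insensitive to the receptors.

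Library totals ran from 16632701 to 26661613 counts. Values are given as CPM, the count per 1000000 counts of the library total scaled by TMM factors, which ranged from 1.04 to 1.12 in wild type controls, 0.864 to 0.896 in ABA-treated wild type, 1.07 to 1.11 in OK100-oct controls and 0.957 to 0.985 in ABA-treated OK100-oct. With library totals alone the median log2 change of all genes shifted by -0.30 for ABA in wild type, -0.17 for ABA in OK100-oct and 0.15 for OK100-oct over wild type with ABA, and no member changed direction in these comparisons. Cell type markers also moved between groups. The summed level of 3 leaf markers was 15780 to 16875 CPM in wild type controls and 9640 to 10469 CPM with ABA, that of 3 root markers 1724 to 1814 and 1010 to 1162 CPM, and that of 3 guard cell markers 42.3 to 49.8 and 27.0 to 30.3 CPM. In OK100-oct controls these sums were 16443 to 19380, 2231 to 2700 and 49.0 to 50.1 CPM, and with ABA 14779 to 15857, 1653 to 1934 and 39.2 to 42.6 CPM, so the root sum already differed between genotypes without ABA. Single genes carried most of the change in the root and guard cell sums. In wild type the root marker PYK10 went from 1706 to 970.4 CPM with ABA while SCR stood at 47.5 and 44.5 CPM. The root marker TIP2-3 went the other way, from 28.1 to 53.7 CPM in wild type and from 12.3 to 39.5 CPM in OK100-oct. The guard cell marker MYB60 went from 16.3 to 3.14 CPM in wild type. There KAT1 stood at 14.5 and 11.9 CPM, and FMA at 14.8 and 13.4 CPM. Against the leaf sum, the leaf marker CAB2 rose with ABA in OK100-oct, from 2860 to 3452 CPM. The part of these markers in the results below was not tested, and in whole seedlings fewer cells of a type and less RNA per cell cannot be told apart.

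The first comparison asked how the clade responded to ABA in the wild type. All 9 genes rose by at least 3-fold at an adjusted p under 0.05 (edgeR's quasi-likelihood test, Benjamini-Hochberg adjustment over all genes tested), where 7.18% of all genes tested rose by the same rule. AHG1, HAI2 and HAI3 entered the test only because they were high with ABA and so had to differ; with at least 10 counts required in every library, 6 genes were tested and all 6 passed. The median log2 change was 4.88 over the 9 genes and -0.06 over all genes tested. ABA-treated and control libraries did not overlap for any member, as was so for 33.4% of all genes tested in the upward direction. The members differed widely in size, from 5.46-fold for HAB2 to 569-fold and more for HAI1, HAI2 and HAI3.

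ABI1, the phosphatase known for its dominant ABA-insensitive allele, stood at 49.3, 47.8 and 47.2 CPM in wild type controls and at 642, 549.9 and 648 CPM with ABA. Its log2 fold change was 3.67 ± 0.10 (SE, n = 3 per group, edgeR adjusted p = 3.17e-12). ABI1 lies on chromosome 4 (13219915 to 13222376, minus strand) and overlaps the last bases of AT4G26070 on the other strand by 22 bases of its 2169 exon bases; whether the counting used strand is not given in the sources used here. Its closest relative ABI2 was far lower at rest, with 7.27, 6.56 and 6.67 CPM in wild type controls and 207, 188 and 211 CPM with ABA. ABI2 rose by 4.88 ± 0.11 on the log2 scale (29.5-fold, edgeR adjusted p = 1.13e-12). Within a library, the count of ABI2 was 0.142 of that of ABI1 on average in wild type controls (0.137 to 0.148) and 0.330 with ABA (0.323 to 0.342), a log2 difference of 1.22 with no overlap of the libraries. An exact permutation test gave p = 0.1 (2-sided), the smallest that 3 against 3 libraries allow, so it could not reach 0.05. This ratio is free of library scaling.

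HAB1, a phosphatase with a receptor-bound structure that is among the best studied of the clade, stood at 72.4, 65.4 and 97.1 CPM in wild type controls and at 1039.9, 890.3 and 988 CPM with ABA. The control libraries of HAB1 were the most spread of the well-counted members (78.3 ± 16.7 CPM, SD, n = 3), and its log2 fold change was 3.63 ± 0.19 (SE, edgeR adjusted p = 2.42e-09). HAB2, its closest relative, stood at 22.8, 22.4 and 20.1 CPM in controls and at 117, 116 and 123 CPM with ABA. HAB2 had the smallest response of the clade, a log2 fold change of 2.45 ± 0.08 (5.46-fold, edgeR adjusted p = 2.95e-11). HAB1 counts were 3.64 times those of HAB2 in wild type controls (2.93 to 4.83) and 8.19 times with ABA (7.67 to 8.86), a log2 difference of 1.20 (exact permutation test, 2-sided, p = 0.1, again the smallest possible). With ABA the ratio was closer to even for ABI1 and ABI2 and farther from even for HAB1 and HAB2.

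PP2CA, a phosphatase with known roles in germination and in guard cell ion channel control, stood at 14.6, 14.2 and 15.2 CPM in wild type controls and at 572, 535 and 593 CPM with ABA. Its log2 fold change of 5.27 ± 0.10 (38.5-fold, edgeR adjusted p = 3.51e-13) was above those of ABI1, ABI2, HAB1 and HAB2. AHG1, known for its role in seeds and germination, was barely counted: 1, 5 and 0 counts in wild type controls against 31, 25 and 38 with ABA. Scaled for library size, the ABA-treated libraries held 14.3 times the AHG1 counts of the controls (exact 95% interval 6.32 to 39.9, which covers counting error only). The edgeR adjusted p was 0.000128 and the fitted log2 change 3.78, which became 5.63 without wild type control replicate 2, the library with 5 of the 6 control counts. In the same libraries the summed level of 5 embryo and seed markers was 0.144 to 0.167 CPM in controls and 32.6 to 36.7 CPM with ABA. Almost all of that sum was GEA6 (26.4 CPM) and EM1 (7.13 CPM), genes for late embryogenesis proteins, while ABI3, OLEO1 and the storage protein gene CRA1 were at 0.0788, 0.602 and 0.315 CPM; the part of these in the AHG1 result was not tested.

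HAI1, HAI2 and HAI3, the highly ABA-induced PP2Cs, were nearly silent without ABA. HAI1 had 11, 18 and 23 counts in wild type controls and 11655, 10913 and 9900 with ABA, that is 0.886 ± 0.294 CPM and 506 ± 42.6 CPM (SD, n = 3). Its log2 fold change was 9.15 ± 0.18 (SE, edgeR adjusted p = 3.51e-13). HAI2 had 1, 3 and 1 counts in controls and 2503, 2552 and 2381 with ABA. HAI3 had 1, 0 and 1 counts in controls and 2285, 2242 and 1956 with ABA. For these genes the control level is set by a handful of counts, so the fold is given with an exact 95% counting interval: 1355-fold (580.5 to 4175) for HAI2 and 2954-fold (817 to 24397) for HAI3, against 569-fold (434 to 762) for HAI1. The intervals of HAI1 and HAI2 overlap, and so do those of HAI2 and HAI3. The fitted log2 change of HAI2, 10.32, became 11.05 without wild type control replicate 2; edgeR's adjusted p was 1.51e-12 for HAI2 and 3.51e-13 for HAI3.

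**Figure D1:**
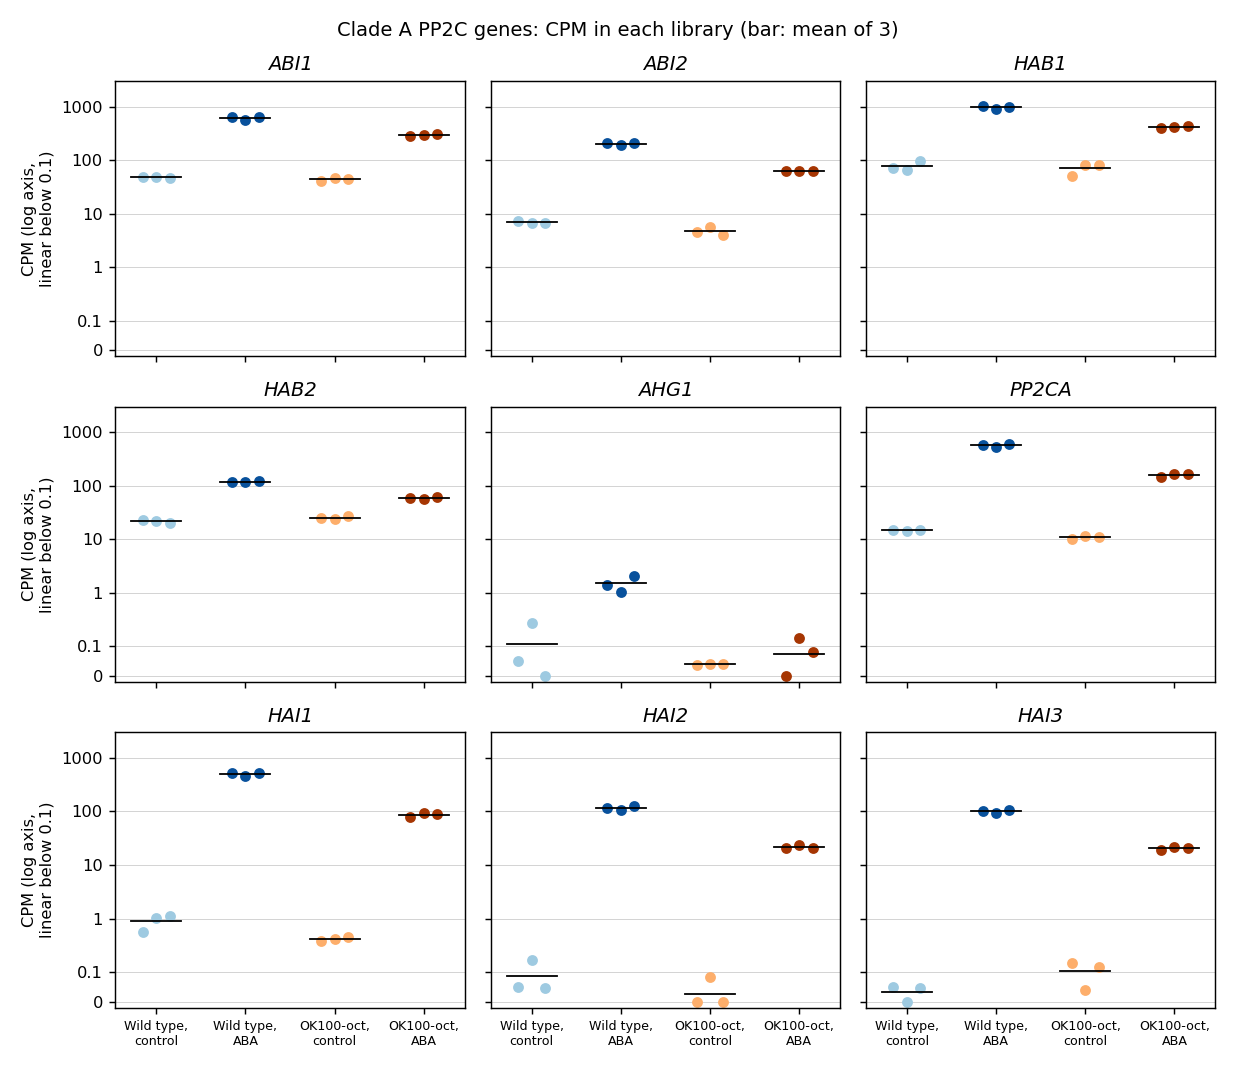
CPM of each of the 9 genes (y axis, log scale, linear below 0.1 CPM) in the 12 libraries, by genotype and treatment (x axis). Points are libraries and the bars are means of 3; in wild type every ABA-treated library lies above every control library for all 9 genes, and in OK100-oct only AHG1 overlaps between ABA and control.

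The promoters of the members were read because ABFs act through the ABA-responsive element, whose core is ACGTG. The 300 bases before each RefSeq gene start were searched for ACGTG on both strands, with overlapping matches merged (CACGTG holds the core on both strands and was counted once). Of the 9 promoters, 7 (77.8%) held at least 1 core, against 25.6% of 27443 protein-coding genes. At least 2 cores were found in 44.4% of the members and 5.86% of all promoters, and at least 3 in 22.2% and 1.32%. The promoters of HAI2 (chr1:2282829-2283128, minus strand, 5 cores), HAI3 (chr2:12608375-12608674, plus strand, 2 cores), PP2CA (chr3:3585851-3586150, minus strand, 4 cores) and HAB2 (chr1:6033970-6034269, plus strand, 2 cores) are printed 5′ to 3′ with the cores, or their reverse complement CACGT, in capitals. They are shown because they hold the most cores and span the least and the most induced members.
HAI2: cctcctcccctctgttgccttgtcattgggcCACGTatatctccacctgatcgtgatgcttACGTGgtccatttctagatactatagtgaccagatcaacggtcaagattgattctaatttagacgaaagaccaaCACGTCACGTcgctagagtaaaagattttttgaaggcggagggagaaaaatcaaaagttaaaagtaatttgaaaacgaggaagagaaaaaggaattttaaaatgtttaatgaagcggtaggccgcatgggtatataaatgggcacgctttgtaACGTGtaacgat
HAI3: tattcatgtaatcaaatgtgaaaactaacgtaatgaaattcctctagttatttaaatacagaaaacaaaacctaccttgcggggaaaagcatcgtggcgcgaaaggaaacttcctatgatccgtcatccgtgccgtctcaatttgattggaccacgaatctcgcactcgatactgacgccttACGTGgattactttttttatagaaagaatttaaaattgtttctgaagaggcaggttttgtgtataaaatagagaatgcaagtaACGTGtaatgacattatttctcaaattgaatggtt
PP2CA: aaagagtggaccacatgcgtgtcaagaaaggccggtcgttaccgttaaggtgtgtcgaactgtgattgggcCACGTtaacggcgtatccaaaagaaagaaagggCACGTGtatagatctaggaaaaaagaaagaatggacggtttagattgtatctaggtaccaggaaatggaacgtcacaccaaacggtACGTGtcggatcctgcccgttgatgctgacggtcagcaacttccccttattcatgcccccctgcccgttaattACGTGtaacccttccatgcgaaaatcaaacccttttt
HAB2: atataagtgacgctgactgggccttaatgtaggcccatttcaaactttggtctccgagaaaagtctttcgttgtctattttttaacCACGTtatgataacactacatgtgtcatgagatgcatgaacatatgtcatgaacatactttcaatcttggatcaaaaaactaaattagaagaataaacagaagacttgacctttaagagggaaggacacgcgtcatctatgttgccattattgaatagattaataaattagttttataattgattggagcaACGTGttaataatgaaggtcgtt
The number of cores did not order the members by response. ABI2 rose 29.5-fold with 0 cores in this window and HAB2 rose 5.46-fold with 2. HAI1 had 0 cores within 300 bases, and also 0 within 1000 bases, before its first annotated start, but its second annotated transcript starts 237 bases further in and has 2 cores in the 300 bases before it. In 1000 bases, 8 of the 9 genes (88.9%) held a core, against 54.4% of all genes. In the 300-base window ABI1, AHG1 and HAB1 held 1 core each, that of HAB1 lying 19 bases before its start. Another annotated transcript of AHG1 starts 70 bases further in and has 2 cores in the 300 bases before it. A match of letters is a description and shows no binding.

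**Figure D2:**
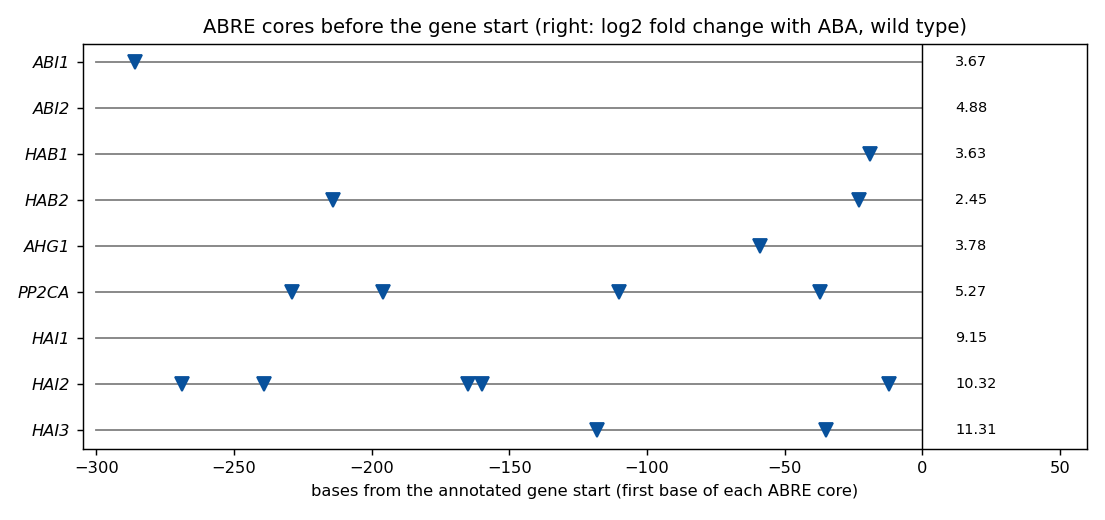
Position of each ABRE core (triangles, first base of the core) in the 300 bases before the annotated start of the 9 genes, in bases from the start (x axis); the numbers at the right are the log2 fold changes with ABA in wild type. HAI2 has 5 cores and PP2CA has 4, while ABI2 and HAI1 have 0.

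The same response was measured in OK100-oct. There 7 of the 9 genes rose by at least 3-fold, where 3.56% of all genes tested did, and 8 rose by the adjusted p alone, where 25.9% of all genes did. The median log2 change was 3.73 over the members and -0.01 over all genes tested. ABA-treated and control libraries did not overlap for 8 of the 9 genes, as for 32.2% of all genes tested in that direction. The exceptions to the 3-fold rule were HAB2, which passed the test but rose less, and AHG1, which did not pass it. HAI2 and HAI3 passed the low-count filter only through ABA-treated libraries, so their rise is not independent of that filter. With at least 10 counts required in every library, which leaves out AHG1, HAI2 and HAI3, 5 genes passed the 3-fold rule.

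ABI1 stood at 41.6, 46.3 and 44.1 CPM in OK100-oct controls and at 279.8, 289 and 304 CPM with ABA, a log2 fold change of 2.72 ± 0.09 (SE, edgeR adjusted p = 1.34e-10). ABI2 stood at 4.57, 5.64 and 4.04 CPM in controls and at 63.0, 62.5 and 63.9 CPM with ABA, a log2 fold change of 3.73 ± 0.11 (edgeR adjusted p = 3.3e-11). Both relatives thus rose with ABA in the mutant as well. HAB1 stood at 50.4, 81.3 and 79.5 CPM in controls and at 395, 415 and 443 CPM with ABA, a log2 fold change of 2.57 ± 0.18 (edgeR adjusted p = 1.83e-07). HAB2 stood at 25.0, 23.8 and 27.2 CPM and at 58.3, 55.7 and 60.5 CPM, a log2 fold change of 1.20 ± 0.08 (2.30-fold, edgeR adjusted p = 9.2e-08). PP2CA stood at 10.1, 11.6 and 10.9 CPM and at 147, 165 and 169 CPM, a log2 fold change of 3.88 ± 0.10 (edgeR adjusted p = 1e-11). For each of these 5 genes the ABA-treated mutant libraries lay above all controls and below all ABA-treated wild type libraries.

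HAI1 had 10, 10 and 11 counts in OK100-oct controls and 1633, 1959 and 2195 with ABA, 213 times the scaled control counts (exact 95% interval 149.7 to 313). HAI2 had 0, 2 and 0 counts in controls and 429, 498 and 520 with ABA, a ratio of 825 (228 to 6816). HAI3 had 4, 1 and 3 counts in controls and 398, 448 and 505 with ABA, a ratio of 192 (97.4 to 447). All 3 HAI genes thus passed the 3-fold rule in the mutant, with edgeR adjusted p values of 1e-11, 8.41e-11 and 1.11e-11; the fitted log2 change of HAI2, 9.41, became 11.90 without OK100-oct control replicate 2, which held both of its control counts. AHG1 had 1, 1 and 1 counts in controls and 0, 3 and 2 with ABA, and a rise was not detectable at this depth (ratio 1.90, exact 95% interval 0.370 to 12.2, edgeR adjusted p = 0.578).

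OK100-oct and wild type were then compared with ABA. These values share the ABA-treated libraries with the responses above and are not independent of them. All 9 genes were lower in OK100-oct by the adjusted p (20.7% of all genes tested), 6 of them by at least 3-fold (1.88% of all genes tested), and no mutant library overlapped a wild type library for any of the 9 (30.3% of all genes tested). The median log2 difference was -1.82 over the members and 0.02 over all genes tested. AHG1 passed the low-count filter only through ABA-treated wild type libraries, so it had to be lower here. With at least 10 counts required in every library, which leaves out AHG1, HAI2 and HAI3, 3 genes passed the 3-fold rule. The members below the 3-fold rule were ABI1, HAB1 and HAB2, at 47.4%, 42.9% and 49.0% of the wild type level, with log2 differences of -1.08 ± 0.09, -1.22 ± 0.17 and -1.03 ± 0.08 (SE, edgeR adjusted p of 1.02e-06, 0.000122 and 5.06e-07).

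ABI2 stood at 31.2% and PP2CA at 28.3% of the wild type level with ABA, log2 differences of -1.68 ± 0.09 and -1.82 ± 0.09 (edgeR adjusted p = 3.65e-08 and 9.33e-09). ABI2 fell short of the 3-fold rule when library totals were used without TMM factors (log2 difference -1.53). The 3 HAI genes stood close together, HAI1 at 17.2%, HAI2 at 18.8% and HAI3 at 20.2%, with log2 differences of -2.54 ± 0.12, -2.41 ± 0.13 and -2.31 ± 0.10 (edgeR adjusted p = 7.61e-09, 2.41e-08 and 5.01e-09). AHG1 showed the lowest level relative to wild type, but it passed the low-count filter only through ABA-treated wild type. It had 5 counts in the 3 mutant libraries against 94 in wild type, a ratio of 0.0518 after scaling (exact 95% interval 0.0164 to 0.125, edgeR adjusted p = 0.000214). Its fitted log2 difference of -4.20 became -4.95 without OK100-oct ABA replicate 2, which held 3 of the 5 counts. The embryo and seed marker sum was 32.6 to 36.7 CPM in the wild type and 0.692 to 4.26 CPM in these mutant libraries. Most of this gap was GEA6 (means of 26.4 in wild type and 0.545 CPM in the mutant) and EM1 (7.13 and 0.281 CPM). OLEO1 (0.602 and 0.403 CPM) and ABI3 (0.0788 and 0.0323 CPM) were also lower. CRA1 went the other way, with 0.315 CPM in wild type and 0.675 CPM in the mutant. The part of these markers in the AHG1 difference was not tested. Over the 9 genes the median level was 28.3% of wild type, and over all 1481 genes that rose by at least 3-fold with ABA in wild type it was 47.7%. As a ratio of log2 responses, OK100-oct over wild type, the order was the other way: the median was 0.737 over the 9 genes and 0.595 over the 1481. Among the 9, the ratios of AHG1 (0.222), HAI2 (0.912) and HAI3 (0.664) rest on at most 8 control counts per group.

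The ratios within the close relatives were also set side by side between genotypes. With ABA the count of ABI2 was 0.217 of that of ABI1 in OK100-oct (0.210 to 0.225) against 0.330 in wild type, a log2 difference of -0.60 in the ratio, where the difference without ABA was -0.41. HAB1 counts were 7.18 times those of HAB2 (6.77 to 7.45) against 8.19 times in wild type, a log2 difference of -0.19. With ABA neither ratio overlapped between genotypes. The exact permutation test (2-sided) gave p = 0.1 for these 3 differences, a value that cannot pass a threshold of 0.05. HAB1 over HAB2 without ABA overlapped between genotypes (exact p = 0.5), and 8 such comparisons were made over both pairs.

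Without ABA, none of the 9 genes differed by at least 3-fold between OK100-oct and wild type (0.141% of all genes tested were lower and 0.354% higher by that rule, edgeR), and DESeq2 also called 0. At an unadjusted p under 0.05, 3 members were lower and 1 was higher, where 10.8% and 10.7% of all genes tested were. By the adjusted p alone ABI2, PP2CA and HAI1 were lower in the mutant, 3 of 9 where 2.29% of all genes tested were, and 0 were higher, where 2.58% were. ABI2 stood at 69.4% of wild type (log2 difference -0.53 ± 0.12, edgeR adjusted p = 0.025), PP2CA at 74.0% (-0.43 ± 0.09, adjusted p = 0.0223) and HAI1 at 46.7% (-1.10 ± 0.29, adjusted p = 0.0477). The mutant libraries lay below the wild type ones without overlap for these 3 genes and ABI1, 4 of 9 where 9.72% of all genes tested did, and above them for HAB2 (11.3% of all genes tested). These calls were not firm: all 3 were lost when edgeR was run on the control libraries alone (adjusted p = 0.211, 0.143 and 0.234), and leaving out single libraries lost ABI2 in 3, PP2CA in 3 and HAI1 in 11 of 12 fits (adjusted p up to 0.0984, 0.0836 and 0.209). ABI2 was lost without wild type control replicate 1 or OK100-oct control replicate 1 or 3, PP2CA without wild type control replicate 3 or OK100-oct control replicate 1 or 3, and HAI1 stayed only without wild type control replicate 1. ABI1 stood at 91.4%, HAB1 at 89.8% and HAB2 at 116% of wild type, with adjusted p of 0.429, 0.645 and 0.138. For AHG1, HAI2 and HAI3 both genotypes had at most 8 counts in 3 libraries, and a difference was not detectable at this depth (adjusted p = 0.563, 0.394 and 0.348).

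The ABA response itself was compared between genotypes by the interaction term, which weighs each genotype against its own controls. It was negative and passed the adjusted p for 7 of the 9 genes, where 9.55% of all genes tested did, and the median was -1.25 over the members and 0.05 over all genes tested. The log2 response in OK100-oct minus that in wild type was -0.95 ± 0.13 for ABI1 (SE, edgeR adjusted p = 0.000255) and -1.15 ± 0.15 for ABI2 (adjusted p = 0.000224). It was -1.06 ± 0.25 for HAB1 (adjusted p = 0.00948) and -1.25 ± 0.11 for HAB2 (adjusted p = 1.9e-05). It was -1.39 ± 0.13 for PP2CA (adjusted p = 2.12e-05) and -1.44 ± 0.33 for HAI1 (adjusted p = 0.00924). These 6 differences lay between -0.95 and -1.44, although the wild type responses of the same genes ran from 2.45 to 9.15. HAI3 differed by -3.80 ± 0.73 (adjusted p = 0.0031), a value that rests on 2 control counts in wild type and 8 in OK100-oct. For AHG1 (-2.94, adjusted p = 0.243) and HAI2 (-0.91, adjusted p = 0.726) no difference was detectable, and the standard errors of 1.67 and 1.51 leave room for large ones in either direction.

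**Figure D3:**
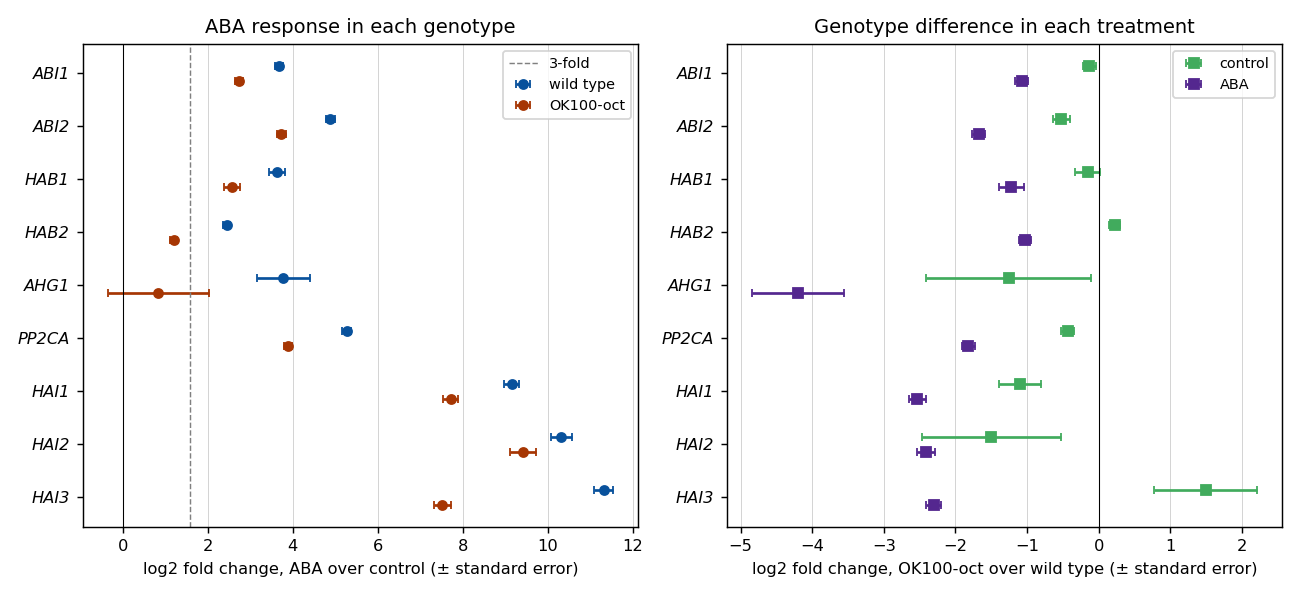
Fitted log2 fold changes with standard errors for each gene: ABA over control in wild type and OK100-oct (left; dashed line, 3-fold) and OK100-oct over wild type without and with ABA (right). All 9 values with ABA at the right lie below -1, while those of AHG1, HAI2 and HAI3 that use control libraries rest on at most 8 counts per group.

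The makeup of the clade was compared on levels per exon length (CPM per kilobase), where genes can be set beside each other. The summed level of the 9 genes was 70.2 ± 5.44 CPM per kilobase in wild type controls and 1452 ± 101 with ABA (SD, n = 3), a 20.7-fold rise. In OK100-oct it was 63.5 ± 7.74 in controls and 489 ± 24.8 with ABA, a 7.71-fold rise. The mutant thus held 90.5% of the wild type sum without ABA, where the libraries overlapped, and 33.7% with ABA, where they did not.

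HAB1 had the highest mean level per length in every group, overlapping ABI1 in OK100-oct controls and PP2CA in wild type with ABA, with 39.7% ± 5.27 of the sum in wild type controls, 24.0% ± 0.672 in wild type with ABA, 39.2% ± 5.37 in OK100-oct controls and 30.5% ± 0.497 in OK100-oct with ABA. HAI1, HAI2 and HAI3 together made up 0.703% ± 0.207 of the sum in wild type controls and 25.6% ± 0.270 with ABA. In OK100-oct they made up 0.449% ± 0.0613 and 13.7% ± 0.866. The share of PP2CA rose from 11.7% to 21.7% in wild type and from 9.57% to 18.2% in OK100-oct, and that of HAB2 fell from 11.8% to 3.11% and from 15.3% to 4.51%. ABI1 held 31.8% and 19.5% in wild type and 32.1% and 27.4% in OK100-oct. These shares are descriptions with no test.

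The order of levels per length in wild type controls was HAB1, ABI1, HAB2, PP2CA, ABI2, HAI1, AHG1, HAI2 and HAI3, and neighbours overlapped between HAB2 and PP2CA and among the last 3. With ABA the order became HAB1 (348 ± 27.2 CPM per kilobase), PP2CA (315 ± 16.2), ABI1 (283 ± 25.4), HAI1 (243 ± 20.4), ABI2 (88.5 ± 5.39), HAI3 (67.5 ± 4.09), HAI2 (61.0 ± 5.51), HAB2 (45.0 ± 1.42) and AHG1 (0.946 ± 0.316). Neighbours overlapped among the first 4, and between HAI3 and HAI2. HAI1, HAI2 and HAI3 thus passed HAB2 in the wild type. In OK100-oct with ABA, HAI1 (41.9 ± 4.20) again passed HAB2 (22.0 ± 0.909), but HAI3 (13.6 ± 0.924) and HAI2 (11.5 ± 1.02) stayed below it, and no neighbours overlapped.

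**Figure D4:**
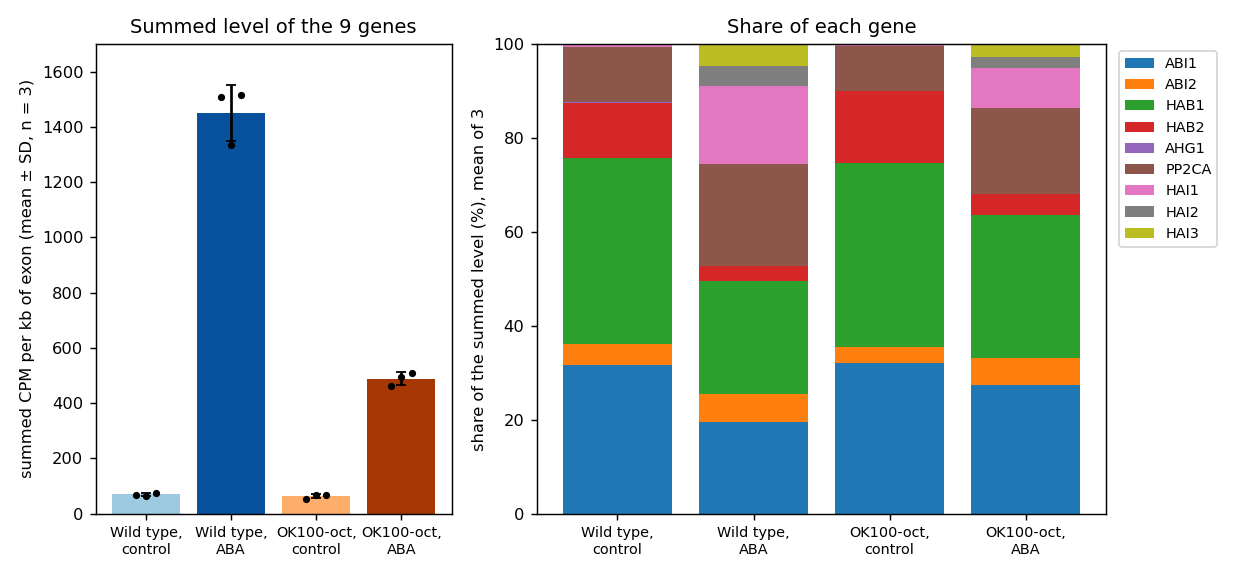
Summed CPM per kilobase of exon of the 9 genes by group (left; bars, mean ± SD of 3 libraries; points, libraries) and the share of each gene in that sum (right, mean of 3, in percent). The sum is 1452 in wild type and 489 in OK100-oct with ABA, and the 3 HAI genes take 25.6% and 13.7% of it.

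The genes whose pattern was most like that of each member were listed by Pearson's r of log2(CPM + 1) over the 12 libraries, among 19592 genes outside the clade. ABI1 was nearest to LEA4-5 (0.999) and FBH3 (0.999), HAI1 to LEA4-5 and LEA7 (both 0.999), and ABI2 and PP2CA to LEA7 and AT2G41190 (0.998 to 0.999). HAI2 was nearest to LTI30 and HSFA6A, HAI3 to MAPKKK18 and NADP-ME1, HAB1 to HDR and AT5G20840, and HAB2 to NHX1 and SPDS3, all between 0.997 and 0.999. Such values were common, since the 12 libraries form 4 groups: for these 8 members 1377 to 1762 genes had an r over 0.95. For AHG1 the values were lower, with AT5G22470 (0.984) and AT5G54000 (0.980) nearest and 69 genes over 0.95, and it is also the member with the fewest counts.

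Other genes of the pathway were counted in the same fit, for ABA in wild type. Of the 14 PYR/PYL receptor genes 10 were tested, and 1 rose and 6 fell by at least 3-fold, where 7.18% of all genes tested rose and 7.16% fell, the largest being PYL6 (log2 change -6.39) and PYL4 (-5.74). The 1 that rose was PYL3, at 0.125 CPM in controls and 0.849 CPM with ABA. It passed the low-count filter only through ABA-treated wild type, so its rise is not independent of that filter. Of the 10 SnRK2 genes 3 rose and 0 fell by at least 3-fold, the largest being SNRK2.7 (1.87) and SNRK2.9 (1.87), followed by OST1, the gene of SnRK2.6 (1.64). Of the 7 group A bZIP genes tested 4 rose and 0 fell by that rule, the largest being ABF3 (3.80) and ABI5 (3.00). Among other PP2C clades, 1 of 9 clade D genes rose (AT5G66080, 1.80) and 1 fell (AT5G02760, -2.92), and 0 of 4 clade B genes passed the rule (edgeR; 1 higher and 1 lower by the adjusted p alone). All 3 clade E genes of the growth-regulating type rose, with 2.86 for AT3G05640 and 1.98 for AT5G27930. Of 6 genes for known partners and ubiquitin ligases of clade A PP2Cs 2 rose, DOG1 (1.92), whose protein binds AHG1, and RGLG1 (1.90), a ligase that targets PP2CA. In OK100-oct, where 3.56% of all genes tested rose and 2.43% fell by this rule with ABA, 4 PYR/PYL genes fell and 0 rose, and 2 group A bZIP genes and 1 partner gene rose. There 0 of the 3 clade E, 4 clade B, 9 clade D and 10 SnRK2 genes rose by at least 3-fold. By the adjusted p alone 3, 0, 3 and 8 of them rose (edgeR), where 25.9% of all genes tested did. The 3 of 9 in clade D is near that share.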

How the data were processed

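RNA-seq counts per gene, as whole numbers, were deposited by the authors for 12 seedling libraries (Trimmomatic 0.36, HISAT2 2.1.0 and HTSeq 0.9.1 on TAIR10, per the labels' processing notes; the strand setting is not given in the sources used here). The labels name 12-day-old seedlings, Trizol and a TruSeq kit, whereas the study's methods name an older age and other kits. Counts were tested with edgeR 4.0.16 in R 4.3.3 (filterByExpr by group, TMM, quasi-likelihood test on all 12 libraries, 33602 genes given, 20617 tested), with calls at an adjusted p under 0.05 and, except for the interaction, at least 3-fold. The standard error is the log2 change over the root of the F statistic. Nothing in the labels says that the 3 libraries of a group came from separate cultures, so p-values measure the spread between these libraries. The biological coefficient of variation was 11.9%, and replicates differed by 4.30 to 44.8 chi-square units per gene. Intervals of count ratios are exact 95% binomial ones. Gene models, promoters and coding sequences were read from RefSeq TAIR10.1 by locus tag, and all 9 genes matched; none of their 50-base exon windows occurred in another gene. Coding sequences were aligned with MAFFT 7.526. All 9 genes are named, with the 2 most correlated genes for each and the 2 largest changes per pathway list. The members and lists were chosen with earlier results of these data known, and the ratios of close relatives were added after seeing the data. Alternatives were DESeq2 1.42.0, other scalings and filters, the replicate number as a block, the compared groups alone, other fold minimums and leaving out each library.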

Additional observations from a re-analysis of the deposited data

Results flagged for a closer look

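The ABA response was lower in OK100-oct than in wild type, by the interaction term of edgeR's quasi-likelihood test, for 7 of the 9 genes. By the same rule it was lower for 9.55% of all genes tested. For AHG1 and HAI2 no difference was detectable. The log2 differences (OK100-oct minus wild type) were -0.95 for ABI1, -1.15 for ABI2, -1.06 for HAB1, -1.25 for HAB2, -1.39 for PP2CA, -1.44 for HAI1 and -3.80 for HAI3. ABI1, ABI2, HAB1, HAB2, PP2CA and HAI1 had at least 10 counts in every library, and the HAI3 value rests on 2 control counts in wild type and 8 in OK100-oct.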

How the results depend on the processing

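The numbers of genes passing the threshold (9 and 7 for ABA in wild type and OK100-oct, 0 and 6 for OK100-oct against wild type without and with ABA, 7 for the interaction) were the same in all 12 fits that left out 1 library. For OK100-oct against wild type with ABA the number was 3 when at least 10 counts were required in every library, since AHG1, HAI2 and HAI3 then left the test; with this filter the numbers for ABA in wild type, ABA in OK100-oct and the interaction were 6, 5 and 6. With library totals it was 5, since ABI2 fell short of 3-fold (-1.53). The interaction gave 6 with a 2-fold minimum. Without ABA it was 3 with no fold minimum and 1 with a 2-fold minimum. No alternative reversed a called value. The replicate numbers did not pair the libraries (correlations of same-numbered libraries from -0.486 to 0.383, 4 of 18 over 0.1, and 4 of 18 highest with their own number). With the replicate number as a block the numbers stayed at 9, 7, 0, 6 and 7, and the differences of ABI2 and HAI1 without ABA had adjusted p of 0.0514 and 0.0707. HAI1 had 0.0505 with DESeq2's size factors. Without scaling by length the share of HAB1 was 45.5% in wild type controls, 30.4% in wild type with ABA, 44.6% in OK100-oct controls and 37.3% in OK100-oct with ABA, and that of HAI1 to HAI3 was 22.6% in wild type with ABA, 0.352% in OK100-oct controls and 11.6% in OK100-oct with ABA. With coding length the share of HAB1 was 26.4% in wild type and 33.1% in OK100-oct with ABA, and that of HAI1 to HAI3 was 24.5% in wild type with ABA. Of the values for single genes under an alternative, 849 stayed on the same side of an adjusted p of 0.05, fold minimum aside, and 23 lost it. Depth limits AHG1 everywhere and HAI2 and HAI3 without ABA, where 1 count is 0.0374 to 0.0556 CPM.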
